A study of Mus musculus with 12 samples.

Results

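How control shRNA microglia responded to a spell without oxygen and glucose followed by reoxygenation (OGD/R) was read from 6 of the 12 RNA-seq libraries of the series, 3 untreated (shCtrl-CTRL) and 3 after OGD/R (shCtrl-OGDR). The cells were BV2, a continuously growing line of mouse microglia, and OGD/R imitates ischemia and reperfusion in culture. By the sample names all 6 libraries came from the same line, shCtrl. The count columns name the untreated libraries shCTL and the treated ones shCTL1-OGDR, and the reason for this difference is not given. By the paper's methods the shCtrl line carries a control shRNA delivered by lentivirus and was selected with puromycin. It is thus a selected population, and the untreated cells carry the shRNA too. Treated cells were held in glucose-free medium at 1% oxygen for 4 h, and the sample labels then give 12 h in normal medium, whereas the paper's methods give a longer reoxygenation. The study describes its replicates as biological, and the labels do not say which cultures they came from. The other line of the series, shAnxa2, carries an shRNA against annexin A2 and has the same 2 conditions in 3 libraries each. Of 21834 protein-coding genes in the deposited count table, 11626 reached 0.5 CPM, a count relative to the total of its library, in at least 3 of the 12 libraries and were tested. Levels below are in CPM after TMM scaling, changes are on the log2 scale with their standard error (SE), and CPM are not corrected for gene length. Total counts in the 6 libraries ran from 19521877 to 27288843.

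The groups were taken from the sample names, since 2 other labels give cell type and genotype by treatment and conflict with the names. Anxa2 was examined first. It stood at 164, 174 and 177 CPM in shCtrl-CTRL and at 251, 295 and 291 CPM in shCtrl-OGDR, so it was higher after OGD/R in every library of the control line (log2 fold change 0.70 ± 0.06 (SE), adjusted p = 1.21e-09). In the shAnxa2 line it stood at 35.0, 44.4 and 41.8 CPM untreated and at 18.2, 20.1 and 20.6 CPM after OGD/R, below every shCtrl library, so Anxa2 sorted the libraries by line as they are named. It does not check the treatment labels. Most changes described below ran the other way in the shAnxa2 line. Of 783 genes called at 2-fold in the control line, 756 had the opposite sign there, and for 757 (96.7%) the difference between the lines passed edgeR's interaction test at an adjusted p under 0.05. The background for that test was high, since it called 8136 of the genes tested (70%). By distance between libraries (squared log2 CPM differences averaged over the genes, then the root), the shCtrl-CTRL libraries lay closer to the shAnxa2-OGDR libraries (0.416) than to shCtrl-OGDR (0.584), and the shCtrl-OGDR libraries were closest to shAnxa2-CTRL (0.453). Libraries within a group lay at 0.252 to 0.280. The treatment of each library was taken from the sample names, and every direction below is that of the libraries so labelled.

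All 15 microglia and macrophage markers passed the filter, with a summed level, per library total without TMM scaling, of 3277 to 3550 CPM in shCtrl-CTRL and 3367 to 3575 CPM in shCtrl-OGDR. Markers of astrocytes and neurons were at or near 0. Their summed level did not exceed 0.987 CPM for astrocytes, where Aqp4 and Sox9 had no count, or 0.879 CPM for neurons, where 6 of 10 markers had none. Oligodendrocyte markers summed to 34.5 to 36.9 CPM before and 31.6 to 34.4 CPM after OGD/R, with Mog and Olig1 at 0. Endothelial and fibroblast markers summed to 2.02 to 2.27 CPM and to 0.96 to 1.5 CPM, with Dcn and Lum at 0. T, B and NK cell markers summed to at most 0.627 CPM.

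Oxygen is sensed in cells by prolyl hydroxylases that mark hypoxia-inducible factor (HIF) for destruction, and HIF turns on glycolytic enzymes, glucose transporters and vessel growth factors when oxygen is short. Loss of amino acids, heme or protein folding capacity activates kinases that favour translation of ATF4, which drives amino acid synthesis and transport. Cells that lack nutrients or mitogens slow ribosome production and stay out of S phase, while the lysosome and autophagy recycle their contents. Microglia are the resident macrophages of the brain and meet all of these conditions in ischemic tissue.

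After OGD/R 3764 genes (32.4% of those tested) were higher and 3608 (31%) were lower at an adjusted p under 0.05 (edgeR quasi-likelihood test, Benjamini-Hochberg). At an added limit of 2-fold these were 541 (4.65%) and 242 (2.08%). Most called changes were small, and 5037 of the 7372 called genes (68.3%) moved by less than 1.5-fold. The median log2 fold change over all genes was 0.0045. TMM scaling places most genes near 0, so this median is largely set by it. A change in total RNA per cell cannot be seen. A 4-fold limit left 77 higher and 32 lower genes, and an 8-fold limit left 18 and 5. Libraries of the groups did not overlap for 7121 of the called genes (96.6%), so a lack of overlap is usual for a called gene here. The share over all genes tested was not counted. Among genes called at 2-fold, 216 of the higher and 139 of the lower ones had a mean under 5 CPM in both groups. Because 63.4% of all genes were called, a list is read below by the balance of its directions and its median against the median near 0, and not by how many of its members were called. The lists were chosen with earlier results of these data known, so their balances and medians are descriptive only.

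**Figure D1:**
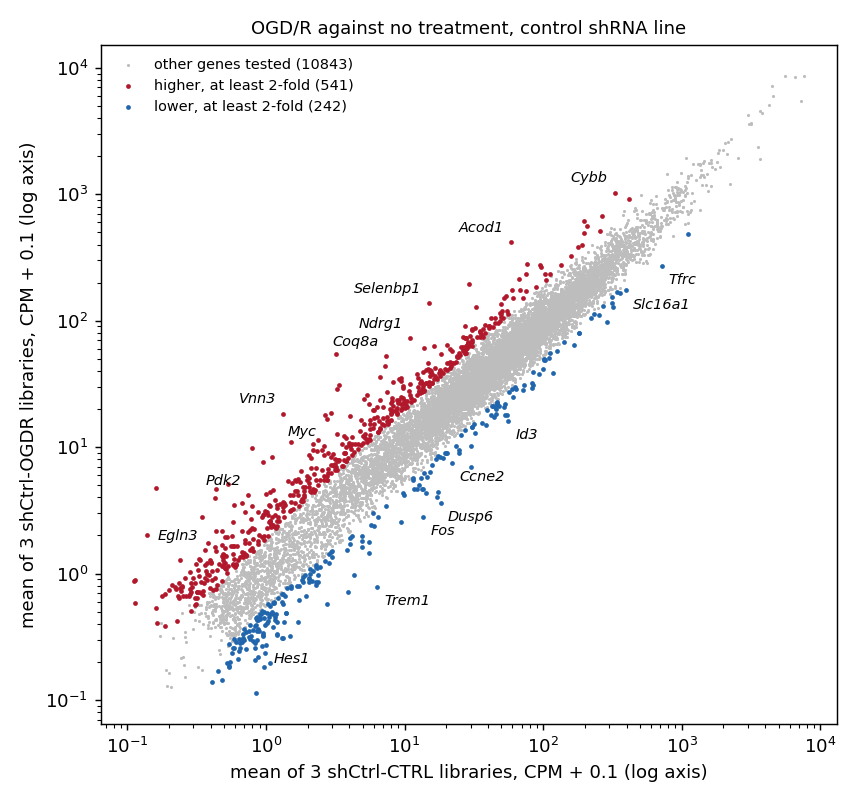
Mean level of each of the 11626 genes tested in the 3 shCtrl-CTRL libraries (x axis) and the 3 shCtrl-OGDR libraries (y axis), in CPM + 0.1 on log axes. Red points are the 541 genes that were higher and blue points the 242 that were lower at an adjusted p under 0.05 and at least 2-fold; the higher group reaches further from the diagonal.

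Among the 15 genes with the largest rise and a mean of at least 5 CPM were Vnn3 (a vanin pantetheinase), Coq8a (an ADCK kinase needed for coenzyme Q), Epm2a (laforin, a glycogen phosphatase), F10 (coagulation factor X) and Ntng2 (a netrin-G adhesion protein), beside the inflammatory genes Nos2, Lcn2 and Acod1. Vnn3 stood at 1.21, 1.21 and 1.29 CPM in the untreated libraries and at 19.5, 17.6 and 17.7 CPM after OGD/R (log2 fold change 3.88 ± 0.13). Coq8a rose from 7.02, 6.85 and 7.76 CPM to 56.7, 47.2 and 52.9 CPM (log2 fold change 2.86 ± 0.09). The 3 treated libraries of each were close together. A large rise without overlap was the condition for choosing these genes. Epm2a moved from 0.71, 1.17 and 0.698 to 7.35, 7.29 and 7.99 CPM, Zc3h6 from 0.543, 0.916 and 0.625 to 9.86, 8.02 and 11.5 CPM and the large scaffold gene Ahnak2 from 32.9, 28.2 and 25.8 to 211, 177 and 197 CPM. Among genes at 2-fold or more, the NADPH oxidase subunit Cybb gained the most CPM, from 356, 316 and 315 to 1056, 1034 and 997 CPM, followed by Nckap5l, Rassf4 and the autophagy gene Tecpr1 (268, 267 and 259.7 CPM before, 712, 649 and 676 CPM after).

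The largest falls among genes of that level were in Trem1 (an amplifying receptor of myeloid cells), Dusp6, Fos, Dok2 (a docking protein that restrains receptor kinase signalling), Nanos1 (an RNA-binding repressor) and Dmwd. Trem1 went from 6.56, 6.05 and 6.07 CPM to 0.587, 0.84 and 0.615 CPM (log2 fold change -3.17 ± 0.19). Dok2 went from 32, 27 and 31.7 CPM to 6.34, 7.25 and 6.92 CPM (log2 fold change -2.14 ± 0.10), and Nanos1 from 17.1, 16.5 and 17.6 CPM to 3.36, 4.05 and 4.36 CPM (log2 fold change -2.13 ± 0.13). A lack of overlap between the groups was a condition for choosing these genes, so it is not a result. Among genes at 2-fold or more, the largest falls in CPM were in mt-Cytb, the transferrin receptor Tfrc and the lactate carrier Slc16a1, which are described with their pathways below. The organic anion carrier Slco4a1, a further gene on both lists, fell from 304, 277 and 285 to 106, 96.9 and 87.1 CPM.

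The promoters of the leading genes are shown for the first genes in rank that held a searched motif in the 250 bases before the start site. The sequences are from RefSeq on build GRCm38.p6, a different build from the mm39 coordinates of the deposited table, and 9377 of the 11626 genes matched an entry. Searched on both strands were ACGTG (the core of HIF sites, which also lies inside CACGTG, the E-box of MYC and TFEB family factors), TGANTCA (AP-1), TGATGNAA (the composite site of ATF4 and C/EBP) and TGACNNNGC (the core of NRF2 sites, which can overlap an AP-1 match). The HIF core was present in 22.3% of all promoters matched, the E-box in 8.55%, the AP-1 motif in 4.29%, the composite site in 2.05% and the NRF2 core in 12%. Capitals mark the match. Vnn3 (chr10:23851212-23851461, plus strand) held TGACNNNGC on the reverse strand and Nanos1 (chr19:60755737-60755986, plus strand) held the same motif. Ivl (chr3:92573736-92573985, minus strand), the gene of the cornified envelope protein involucrin, which fell from 5.47, 5.75 and 5.07 to 1.6, 1.49 and 1.95 CPM, held an AP-1 motif.
Vnn3: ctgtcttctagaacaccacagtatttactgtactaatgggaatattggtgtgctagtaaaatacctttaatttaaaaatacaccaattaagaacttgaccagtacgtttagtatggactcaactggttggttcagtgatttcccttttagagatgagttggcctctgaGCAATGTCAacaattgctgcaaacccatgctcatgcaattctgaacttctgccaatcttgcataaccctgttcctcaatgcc
Nanos1: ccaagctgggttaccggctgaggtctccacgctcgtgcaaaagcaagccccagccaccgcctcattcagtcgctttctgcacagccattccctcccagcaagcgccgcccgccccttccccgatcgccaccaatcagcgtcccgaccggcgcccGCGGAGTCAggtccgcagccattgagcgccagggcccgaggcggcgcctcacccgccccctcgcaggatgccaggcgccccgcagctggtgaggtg
Ivl: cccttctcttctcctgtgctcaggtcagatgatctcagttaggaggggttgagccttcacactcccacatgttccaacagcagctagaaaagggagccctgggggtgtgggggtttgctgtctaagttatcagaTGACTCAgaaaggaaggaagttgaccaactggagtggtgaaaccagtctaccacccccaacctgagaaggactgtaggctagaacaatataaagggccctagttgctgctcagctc

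Over all called genes the shares of promoters with a motif lay within a few percentage points of those over all genes. ACGTG was present in 22% of promoters of genes that rose and 24.3% of those that fell, TGANTCA in 4.65% and 3.95%, TGATGNAA in 2.44% and 1.64%, and TGACNNNGC in 13.3% and 11.9%. Their shares in single gene groups are given with those groups.

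Genes of the hypoxia response rose more often than they fell. Of 41 tested, 27 were higher and 8 lower, with a median log2 fold change of 0.53 beside 0.0045 over all genes. The highest rises were in Selenbp1, Ndrg1 and Egln3. Selenbp1 encodes selenium-binding protein, a methanethiol oxidase that makes hydrogen sulfide and hydrogen peroxide, and it stood at 13.5, 13.9 and 17.1 CPM in shCtrl-CTRL and 109.6, 151 and 152 CPM in shCtrl-OGDR (log2 fold change 3.21 ± 0.11, adjusted p = 1.78e-17). Ndrg1, a stress gene long used as a marker of low oxygen, stood at 9.27, 11.7 and 11.5 CPM and at 63.6, 78.7 and 74.3 CPM (log2 fold change 2.73 ± 0.09, adjusted p = 3.84e-17). Egln3, the prolyl hydroxylase that is itself a HIF target, was low throughout at 0.167, 0.33 and 0.294 CPM and 1.02, 1.53 and 1.74 CPM. For Egln3 the lowest treated library lay above the highest untreated one. This held for Selenbp1 and Ndrg1 by the rule that chose the leading genes.

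Hif1a mRNA itself was level, at 249, 237 and 256 CPM before and 242, 237 and 233 CPM after (log2 fold change -0.06 ± 0.06, adjusted p = 0.383), and its values overlapped. The mitophagy receptor Bnip3 rose from 59.4, 65.3 and 76.6 to 179, 244 and 224 CPM and its relative Bnip3l from 121, 116 and 132 to 203, 215 and 222 CPM. Vegfa, the vessel growth factor, rose from 35.8, 39.4 and 38.5 to 71.2, 73.1 and 70.3 CPM (log2 fold change 0.92 ± 0.06). Ero1a, an oxidase of the endoplasmic reticulum, and Gys1, the muscle-type glycogen synthase, changed by 1.45 and 1.20 on the log2 scale. The list also held genes that fell. The carbonic anhydrase Car12 went from 108, 106 and 114 to 52.6, 49 and 49.4 CPM (log2 fold change -1.12 ± 0.05), while Car9 changed by 0.73 ± 0.26 on the log2 scale (adjusted p = 0.0158) from a level near 1 CPM. Epas1, which encodes HIF-2 alpha, changed by -0.43. Of the 35 called genes, 34 had the opposite sign in the shAnxa2 line, as did 6834 of all 7372 called genes.

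ACGTG was present in 16 of 34 hypoxia promoters matched (47.1%) and in 13 of 32 of the glycolysis list (40.6%), beside 22.3% of all promoters. The hypoxia list holds HIF targets and 9 HIF pathway regulators. Both lists were chosen with earlier results of these data known, and the shares cover members whatever their change. They describe the lists and not the response. The Selenbp1 promoter (chr3:94932833-94933082, plus strand, GRCm38.p6), shown because this gene led the group, held a single match that reads CACGT on this strand.
Selenbp1: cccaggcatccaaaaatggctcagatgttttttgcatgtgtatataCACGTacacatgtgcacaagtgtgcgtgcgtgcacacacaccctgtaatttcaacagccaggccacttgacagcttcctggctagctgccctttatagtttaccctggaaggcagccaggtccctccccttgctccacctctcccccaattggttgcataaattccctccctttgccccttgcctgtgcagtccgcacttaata

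Glycolytic enzymes moved together by small steps. Of 21 enzymes tested, 17 were higher and 2 lower (median 0.35 on the log2 scale). Pgk1 stood at 1197, 1187 and 1256 CPM before and 1650.0, 1812 and 1769 CPM after OGD/R (log2 fold change 0.52 ± 0.04), and Gapdh at 4280.0, 4604 and 4764 CPM and 5589, 5976 and 6355 CPM (log2 fold change 0.39 ± 0.04). Isoforms known for restricted expression gave larger values than their abundant relatives, a difference that was not tested, as Eno2 changed by 1.38 ± 0.10, Aldoc by 0.97 ± 0.08 and Pfkm by 0.76 ± 0.05, whereas Eno1 changed by 0.18 ± 0.04, Aldoa by 0.49 ± 0.04 and Pfkl by 0.23 ± 0.06. The first enzyme Hk2 (-0.08 ± 0.07, adjusted p = 0.327) and the main glucose transporter Slc2a1 (-0.02 ± 0.08, adjusted p = 0.832) did not pass the test, and their libraries overlapped. Slc2a8, an intracellular hexose transporter, did, from 6.68, 5.24 and 6.62 to 19.7, 16.8 and 15.5 CPM.

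Beyond pyruvate the changes divided by step. Pyruvate dehydrogenase kinases, which keep pyruvate out of the mitochondrion, rose, with Pdk2 going from 0.292, 0.77 and 0.882 to 4.18, 3.89 and 4.2 CPM (log2 fold change 2.62 ± 0.26) and Pdk1 from 148, 144 and 157 to 237, 257 and 256 CPM (log2 fold change 0.74 ± 0.05). Lactate dehydrogenase Ldha changed by 0.30 ± 0.05. Slc16a1 (MCT1), which carries lactate across the cell membrane, fell from 384, 396 and 402 to 170.2, 178 and 172 CPM (log2 fold change -1.18 ± 0.05, adjusted p = 5.17e-16). A lack of overlap was a condition for choosing Slc16a1 among the largest falls, so it is not a result. Slc16a3, another monocarboxylate carrier of this list, changed less, from 195, 193 and 198 to 163, 184 and 168 CPM (log2 fold change -0.18 ± 0.06). The pentose phosphate pathway did not follow glycolysis, since of 10 genes tested only Pgls was higher (0.77) and 4 were lower, Rpia most (-0.57).

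Nuclear and mitochondrial genes of respiration moved in different directions. Of 77 nuclear-encoded subunits of oxidative phosphorylation 40 were higher and 3 lower (median 0.17). Of 28 genes of the TCA cycle and its feeder enzymes 17 were higher and 4 lower, pyruvate carboxylase Pcx most (0.79). Of 20 genes of fatty acid oxidation 12 were higher and 2 lower, and the one that fell most was Cpt1a, the gate of fatty acid entry into the mitochondrion (41, 43 and 45.2 CPM before, 25.1, 27.9 and 22.9 CPM after). Of the 11 mitochondrially encoded subunits tested, none was higher and 7 were lower (median -0.55). The strongest was mt-Cytb, of complex III, at 1131, 1156 and 1055 CPM before and 427, 517 and 505 CPM after (log2 fold change -1.21 ± 0.06), followed by mt-Nd2 (-0.88), mt-Nd1 (-0.85) and mt-Nd4 (-0.84). mt-Co1 overlapped between the groups (616, 767 and 592 and 657, 587 and 556 CPM, adjusted p = 0.11).

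The mitochondrially encoded genes took 0.402% to 0.472% of the counts of the untreated libraries and 0.251% to 0.272% after OGD/R (exact permutation test over libraries, two-sided p = 0.1, the smallest that 3 against 3 allows). Regulators of mitochondrial gene expression were lower in 6 of 9 tested and higher in 1. Among them were the coactivator Ppargc1b (-0.42) and the mitochondrial DNA-packaging factor Tfam (-0.18). Mitochondrial ribosomal proteins were lower in 31 and higher in 15 of 77 (median -0.10).

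**Figure D2:**
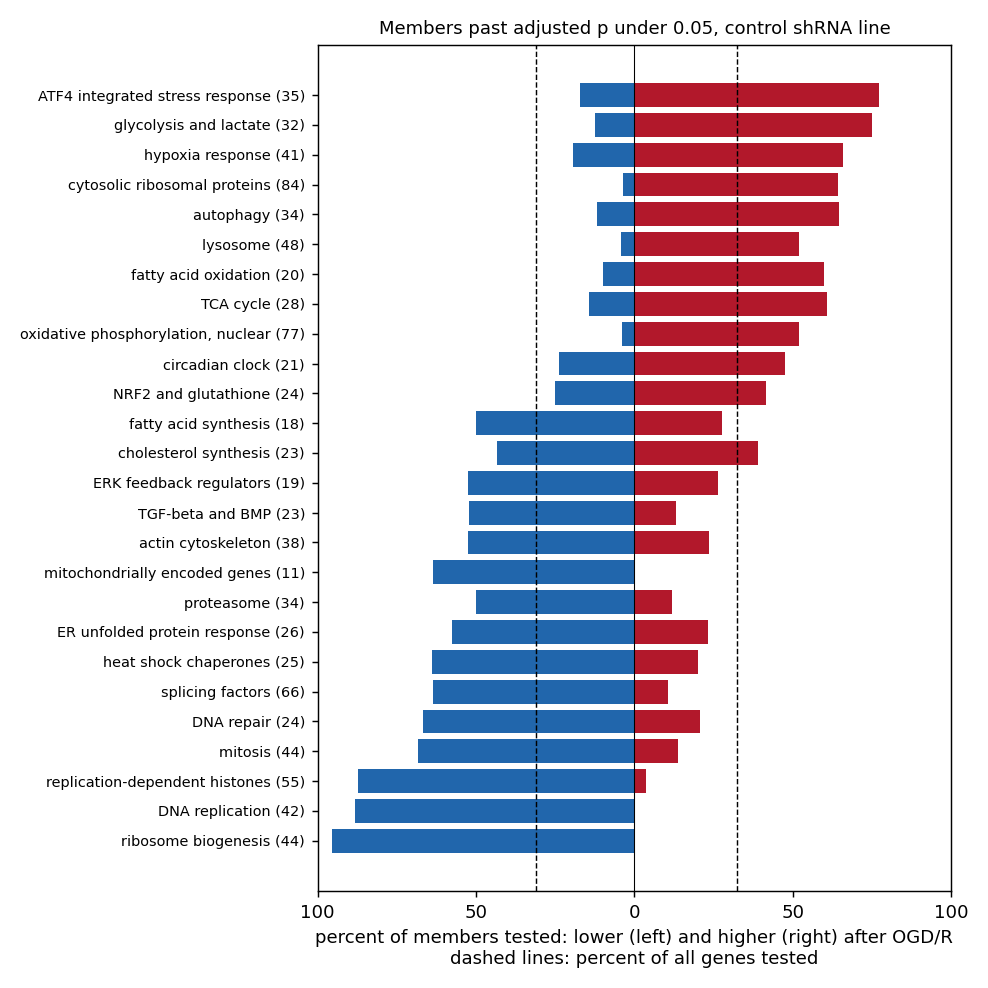
For 26 gene lists, the percent of members tested that were lower (blue, left) and higher (red, right) after OGD/R at an adjusted p under 0.05; the number tested is in brackets and the dashed lines are the shares over all genes, 31% and 32.4%. Ribosome biogenesis, DNA replication and histone genes lie far to the left, and ATF4, glycolysis and hypoxia genes far to the right.

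The ATF4 program rose in its regulators and its biosynthetic enzymes but not in most of its transporters. All 13 regulators tested were higher (median 1.02) and 11 of 13 synthesis genes (median 0.53), whereas 3 of 9 amino acid transporters were higher and 6 lower (median -0.17). The list as a whole had 27 higher and 6 lower of 35 (median 0.65). Atf4 stood at 192, 203 and 178 CPM before and 309.6, 309.7 and 333 CPM after OGD/R (log2 fold change 0.73 ± 0.06, adjusted p = 1.3e-10). Its partner and target genes Ddit3 (CHOP), which promotes death under unresolved stress, and Trib3, a pseudokinase that restrains ATF4, stood at 5.26, 4.91 and 4.63 and 13, 12.6 and 13 CPM before and at 11.2, 9.85 and 11.1 and 34.5, 28 and 33.5 CPM after. Nupr1 (1.65), Ddit4 (1.57), which restrains mTORC1, Gadd45a (1.54), Chac1 (1.34), Atf3 (1.01) and Atf5 (1.01) rose too. No regulator named here overlapped between the groups.

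Of the synthesis genes, Pycr1, which makes proline, rose from 5.81, 6.71 and 5.4 to 22.1, 19.1 and 17.3 CPM (log2 fold change 1.71 ± 0.12) and Pck2, the mitochondrial PEP carboxykinase, from 76.5, 74.7 and 74.3 to 264, 226 and 208 CPM (log2 fold change 1.63 ± 0.07). Asns, asparagine synthetase, rose from 166, 164 and 179 to 316, 277 and 265 CPM (log2 fold change 0.75 ± 0.06). Aldh1l2 (1.34), a mitochondrial folate enzyme, and Gpt2 (1.33), a mitochondrial transaminase, rose by similar amounts, and the serine pathway genes Phgdh (0.53), Psat1 (0.23) and Psph (0.53) by less. Transporters divided. Slc7a11, the cystine carrier that feeds glutathione, went from 16.8, 15.5 and 13.3 to 44.4, 36.9 and 39.7 CPM (log2 fold change 1.41 ± 0.11), and the glycine carrier Slc6a9 changed by 0.73. The leucine carrier Slc7a5 went from 163, 194 and 188 down to 129.6, 114 and 108 CPM (log2 fold change -0.63 ± 0.07), and the neutral amino acid carriers Slc38a1 (-0.53) and Slc38a2 (-0.25) fell as well.

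The composite motif TGATGNAA was present in 8 of 31 promoters of the ATF4 list (25.8%), beside 2.05% of all promoters. The 7 genes with the motif that rose were Pycr1, Nupr1, Pck2, Slc7a11, Chac1, Atf3 and Asns. The list is made mostly of known ATF4 targets, so this share describes the list. These promoters were chosen for printing after the motif counts were seen. The 3 with the largest rise are shown, from GRCm38.p6, with all matches in capitals: Pycr1 (chr11:120643749-120643998, minus strand), Nupr1 (chr7:126625471-126625720, minus strand) and Pck2 (chr14:55540016-55540265, plus strand). The Pycr1 match begins 103 bases before the start. Nupr1 also held CACGTG, and its composite motif and that of Pck2 read on the reverse strand.
Pycr1: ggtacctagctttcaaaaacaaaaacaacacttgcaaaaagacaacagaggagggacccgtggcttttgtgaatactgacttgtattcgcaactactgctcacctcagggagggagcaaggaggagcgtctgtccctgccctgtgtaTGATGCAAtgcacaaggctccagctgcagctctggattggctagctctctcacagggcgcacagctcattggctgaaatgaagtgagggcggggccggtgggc
Nupr1: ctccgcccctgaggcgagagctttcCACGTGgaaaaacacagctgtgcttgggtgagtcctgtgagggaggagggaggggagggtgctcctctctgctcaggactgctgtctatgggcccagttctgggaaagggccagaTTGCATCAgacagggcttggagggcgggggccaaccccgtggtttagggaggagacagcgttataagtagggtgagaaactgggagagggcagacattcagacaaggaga
Pck2: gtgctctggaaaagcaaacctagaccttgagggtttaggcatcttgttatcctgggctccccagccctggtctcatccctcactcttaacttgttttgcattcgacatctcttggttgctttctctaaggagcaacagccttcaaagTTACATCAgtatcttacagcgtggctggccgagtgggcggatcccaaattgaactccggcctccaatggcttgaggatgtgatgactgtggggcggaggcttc

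Chaperones were mostly lower. Of 26 genes of the unfolded protein response of the endoplasmic reticulum 15 were lower and 6 higher (median -0.42), and of 25 heat shock chaperones tested 16 were lower and 5 higher (median -0.34). Creld2 and Manf, secreted folding factors, stood at 102, 102 and 95.3 and 44.4, 49.4 and 41.6 CPM before and 37.9, 43.2 and 42.5 and 17, 23.5 and 21.6 CPM after. Hspa5 (BiP), the main chaperone of this compartment, changed by -0.48 ± 0.05 and calreticulin Calr by -0.90 ± 0.05. Genes of this list that rose were mainly sensors and degradation factors, Ern1 (0.49), Herpud1 (0.54), Sel1l (0.18) and Atf6 (0.13), with the transcription factor Creb3l2 (0.61). In the cytosol, Hsph1 went from 175, 180.5 and 186 to 86.5, 74.9 and 76.4 CPM (log2 fold change -1.19 ± 0.06), and the abundant Hspa8 from 3563, 3642 and 3830.0 to 1856, 1935 and 1864 CPM (log2 fold change -0.96 ± 0.04). Proteasome subunits were lower in 17 and higher in 4 of 34 (median -0.13).

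Ribosome biogenesis and ribosomal proteins also moved apart. Of 44 nucleolar and RNA polymerase I factors, none was higher and 42 were lower, with a median of -0.67 and a range from -1.24 to -0.07. Grwd1, a ribosome assembly chaperone, stood at 72.3, 71 and 75.8 CPM before and 29.4, 34.2 and 29.2 CPM after (log2 fold change -1.24 ± 0.06). Heatr1, needed for transcription of ribosomal DNA, stood at 369.9, 353 and 357 CPM and 165, 168 and 163 CPM (log2 fold change -1.12 ± 0.05), and Nop2, an rRNA methyltransferase, at 320.1, 317 and 311 CPM and 148, 155 and 161 CPM. Nucleolin Ncl, the most abundant of those named here, changed by -0.59 ± 0.05 and fibrillarin Fbl by -0.37 ± 0.05. All 42 had the opposite sign in the shAnxa2 line, and all 42 passed the interaction test. Most called genes did so too, 6834 and 6906 of 7372. The subunits of the finished cytosolic ribosome went the other way by small steps, with 54 of 84 higher and 3 lower (median 0.20), and their share of all counts went from 4.69% to 4.85% in the untreated libraries to 5.48% to 5.70% after OGD/R (exact permutation p = 0.1, the smallest possible).

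Translation factors were lower in 16 and higher in 8 of 31. The 2 genes of that list that rose most restrain translation, Eef2k, the kinase of elongation factor 2 (36, 36.8 and 39.2 CPM before, 70.9, 71 and 67.1 CPM after), and Eif4ebp1, which binds the cap-binding protein (46.2, 47.1 and 47.6 and 80.8, 75.3 and 80.8 CPM). Splicing factors were lower in 42 and higher in 7 of 66 (median -0.26), among them Srsf7 (-0.71) and Srsf1 (-0.69), whereas the cold-inducible Rbm3 rose (0.47). The polyamine enzyme Odc1 went from 315, 313 and 319 to 131, 148 and 138 CPM (log2 fold change -1.19 ± 0.05).

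**Figure D3:**
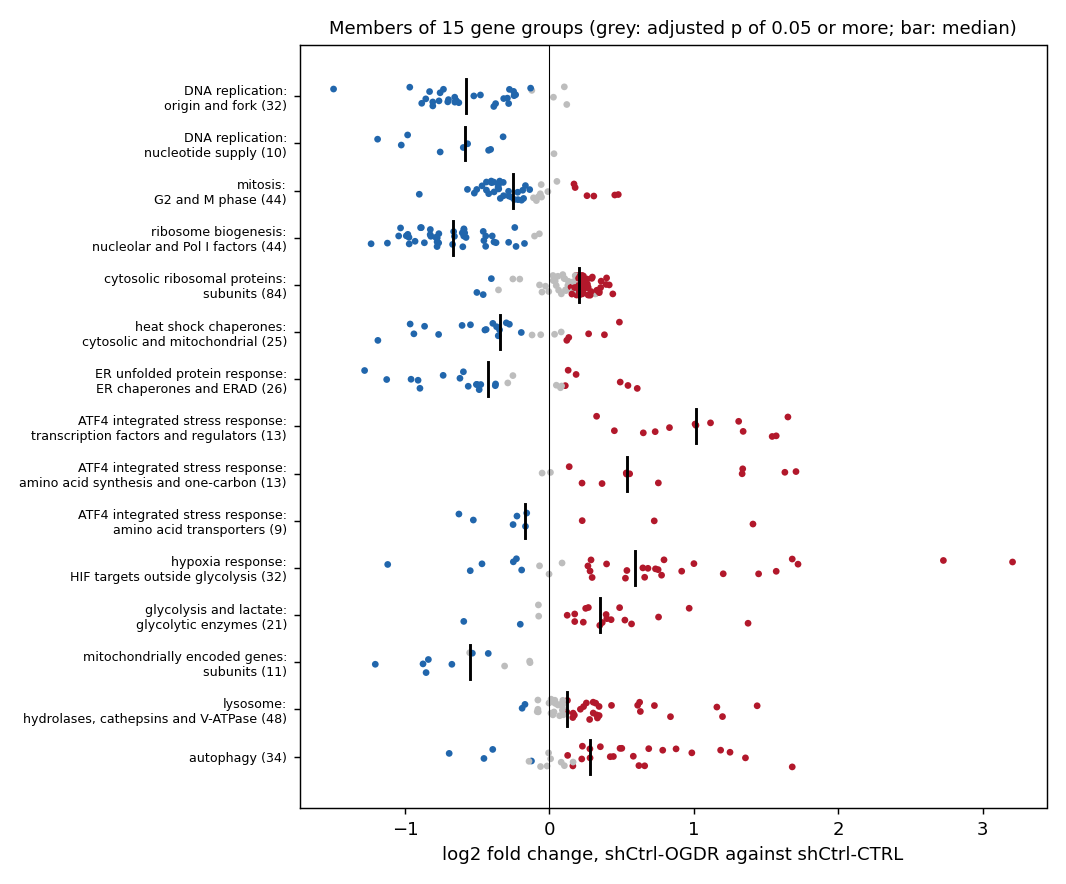
Log2 fold change (x axis) of each member tested in 15 gene groups (rows, number of genes in brackets); red and blue points passed an adjusted p under 0.05, grey points did not, and black bars are medians. The 44 ribosome biogenesis factors all lie at or below -0.07, and the 13 ATF4 regulators all lie above 0.

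Genes of DNA replication fell nearly as a block. Of 32 origin and fork factors 28 were lower and none higher (median -0.57), and of 10 genes of nucleotide supply 9 were lower and none higher (median -0.58). Cdc6, which loads the replicative helicase, stood at 83.7, 84.3 and 81.1 CPM before and 29.9, 29.8 and 28.6 CPM after (log2 fold change -1.50 ± 0.06, adjusted p = 1.9e-16). Rrm2, the regulated subunit of ribonucleotide reductase, stood at 183, 180.4 and 183 CPM and 73.8, 85.8 and 80.0 CPM (log2 fold change -1.19 ± 0.05). The helicase subunit Mcm5 and the sliding clamp Pcna changed by -0.88 ± 0.05 and -0.63 ± 0.06. The untreated and treated libraries of these genes did not overlap. Tk1, the salvage kinase, differed from the others of its group by overlapping between conditions (72.4, 72.7 and 69.8 CPM and 71.9, 73.6 and 74.3 CPM, adjusted p = 0.603).

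Replication-dependent histone genes were lower in 48 and higher in 2 of 55 tested (median -0.48), and their share of all counts went from 1.49% to 1.56% down to 1.14% to 1.18% (exact permutation p = 0.1, the smallest possible). Their coding sequences are nearly alike, so reads may be divided among copies and single members are uncertain. Mitotic genes moved less, with 30 of 44 lower, 6 higher and a median of -0.25. Mybl2, a driver of late cell cycle genes, changed by -0.90 ± 0.05, Cdk1 by -0.57 ± 0.05 and Top2a by -0.47 ± 0.05, while cyclin Ccnb2 (0.48 ± 0.05) and the phosphatase Cdc25b (0.45 ± 0.05) were higher. DNA repair genes were lower in 16 and higher in 5 of 24. The largest falls in this list were in Exo1 (-1.04), Rad51ap1 (-0.93), Brca1 (-0.81) and Chek1 (-0.72). Ddb2, of nucleotide excision repair, rose (0.89), as did the checkpoint kinases Chek2 (0.42) and Atr (0.40) and the recombination helicase Blm (0.39).

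At the entry to S phase the D and E cyclins fell. Ccnd2 stood at 78.8, 86.8 and 85.3 CPM before and 29.4, 33.9 and 32.8 CPM after (log2 fold change -1.39 ± 0.06), and Ccne1 at 96, 89.6 and 95.8 CPM and 39.9, 36.8 and 36 CPM (log2 fold change -1.32 ± 0.06). Ccne2 changed by -1.56 ± 0.11 and Ccnd1 by -1.07 ± 0.05. Of 20 cyclins, kinases and E2F and MYC network factors 15 were lower and 5 higher, and of 13 inhibitors 5 were higher and 1 lower. Among those higher were genes of quiescence, the noncanonical cyclin Ccng2 (13.1, 12.5 and 13.7 CPM before, 30.8, 35.2 and 33.2 CPM after), the MYC antagonist Mxd1 (1.19), the antiproliferative Btg1 (1.09), the pocket proteins Rb1 (0.74) and Rbl2 (0.75), and Cdkn1b (0.53). Cdkn1a, the p21 inhibitor, did not pass the test (0.12 ± 0.12, adjusted p = 0.396).

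Myc stood apart from this group. It was higher after OGD/R, at 1.96, 2.71 and 2.87 CPM before and 11.1, 9.73 and 9.38 CPM after (log2 fold change 1.99 ± 0.15, adjusted p = 4.58e-11), with the lowest treated library more than 3-fold above the highest untreated one. MYC is known as a driver of ribosome biogenesis, nucleotide synthesis and Odc1, all of which were lower in the same libraries. Its level remained near 10 CPM.

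**Figure D4:**
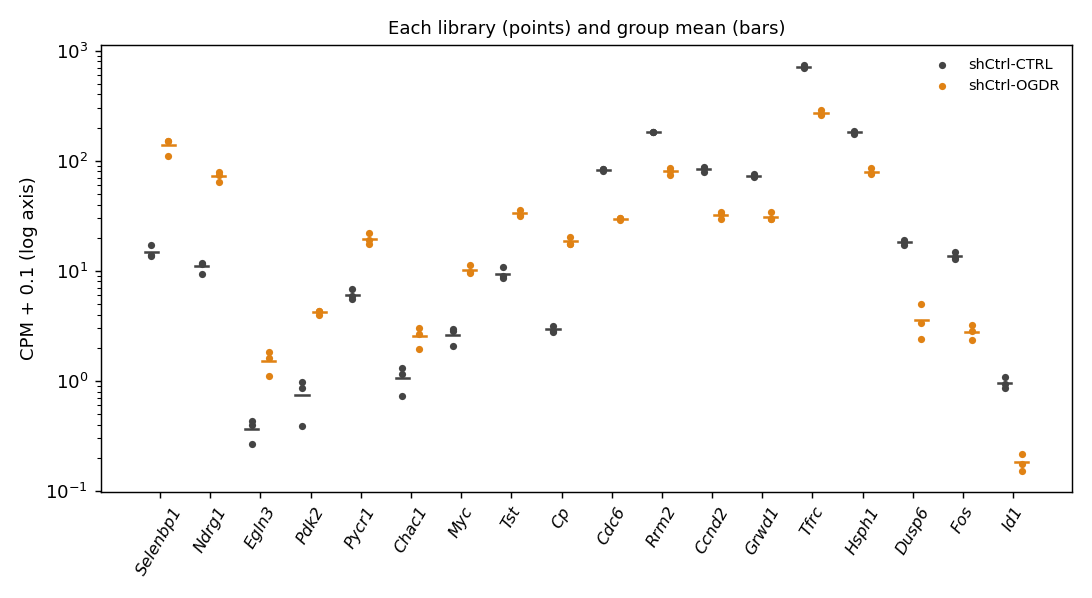
CPM + 0.1 on a log axis for 18 genes in each of the 3 shCtrl-CTRL (grey) and 3 shCtrl-OGDR libraries (orange), with bars at the group means. The genes were picked by hand with results of these data known, several from rules that required no overlap, so the lack of overlap is not a result. They run from Selenbp1, the largest of those that rose, to Id1, which fell to at most 0.117 CPM.

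Genes that read out growth factor and BMP signalling were among the strongest falls. Dusp6, the phosphatase induced by ERK to restrain it, stood at 17.2, 18.3 and 18.9 CPM before and 2.31, 3.28 and 4.92 CPM after (log2 fold change -2.41 ± 0.15, adjusted p = 1.81e-12). Other ERK-induced genes were lower as well, Etv5 (-1.33), Dusp5 (-1.20) and Spry2 (-0.83), and of 19 ERK feedback genes 10 were lower and 5 higher. The higher ones included the phosphatases Dusp8 (2.05) and Dusp10 (1.17), which act mainly on the stress kinases JNK and p38. Fos stood at 13.3, 14.7 and 12.8 CPM and 2.27, 3.09 and 2.77 CPM (log2 fold change -2.32 ± 0.14), Arc at 10.3, 9.09 and 8.68 CPM and 2.46, 2.71 and 2.2 CPM, and Jun changed by -0.60 ± 0.05. Of 17 immediate early factors 8 were lower (47.1%) and 5 higher (29.4%), beside 31% and 32.4% of all genes. Those that rose most were Atf3 (1.01), Klf4 (0.69), Maff (0.67) and Jund (0.46).

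Id1 and Id3, direct targets of BMP signalling that block differentiation factors, fell. Id3 stood at 58.8, 47 and 61 CPM before and 16, 16.9 and 15 CPM after (log2 fold change -1.80 ± 0.09), and Id1 had 20, 21 and 27 counts in the untreated libraries and 3, 2 and 1 after OGD/R. The BMP regulator Bmper changed by -2.50 ± 0.29 and Smad7 by -0.81 ± 0.12. Of 23 genes of TGF-beta and BMP signalling 12 were lower and 3 higher (median -0.35). The Notch target Hes1 changed by -2.27 ± 0.50 from about 1 CPM while the receptor Notch1 changed by 0.92 ± 0.16. The VEGF receptor Kdr fell from 166, 166 and 169 to 67, 60.7 and 65.2 CPM (log2 fold change -1.38 ± 0.05) and the EGF family ligand Hbegf from 12.9, 12.3 and 12.7 to 5.51, 4.89 and 4.41 CPM, whereas the stress ligand Gdf15 rose from 5.14, 5.06 and 4.89 to 16.6, 13.6 and 15.2 CPM.

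Lysosome and autophagy genes rose more often than they fell. Of 48 lysosomal genes 25 were higher and 2 lower (median 0.12), and of 34 autophagy genes 22 were higher and 4 lower (median 0.28). Tfeb, the factor that drives both sets, stood at 30.2, 28.4 and 28.7 CPM before and 70.2, 62.8 and 67.4 CPM after (log2 fold change 1.20 ± 0.07). Naglu, which degrades heparan sulfate, stood at 51.5, 46.9 and 50.1 CPM and 136, 127 and 140.0 CPM (log2 fold change 1.44 ± 0.06), and the proton pump subunit Atp6v0d2 changed by 1.16 ± 0.14. The abundant protease Ctsd overlapped between the groups (0.01 ± 0.04, adjusted p = 0.832). CACGTG was present in 11 of 38 lysosomal promoters matched (28.9%), beside 8.55% of all promoters. This share covers members whatever their change, so it describes the list and not the response. Over all called genes, CACGTG was in 7.42% of promoters of those that rose and 10.2% of those that fell. In autophagy, the starting kinases Ulk1 (0.79) and Ulk2 (1.19) and the receptors Sqstm1 (0.69), Optn (0.99) and Calcoco1 (1.25) rose, while Map1lc3b (-0.01 ± 0.06) and Becn1 (0.01 ± 0.06) did not pass the test.

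Among iron genes the main importer fell and the storage subunits rose. Tfrc, the transferrin receptor that imports iron, stood at 709, 698 and 741 CPM before and 267, 289 and 259 CPM after (log2 fold change -1.40 ± 0.06, adjusted p = 5.07e-16). The storage subunits Fth1 (0.70 ± 0.04) and Ftl1 (0.41 ± 0.06) were higher, as was Cp, the ferroxidase ceruloplasmin that helps iron leave the cell, from 2.67, 3.08 and 2.76 to 20.1, 17.4 and 17.6 CPM (log2 fold change 2.69 ± 0.15). The iron exporter ferroportin Slc40a1 was higher (0.51 ± 0.14) and the heme exporter Flvcr1 lower (-0.35 ± 0.06). The importer Slc11a2 was higher (0.96 ± 0.05) and the ferrireductase Steap3 lower (-0.65 ± 0.05). Of 15 iron genes 10 were higher and 4 lower. In a list of 7 metallothioneins and zinc genes 5 were lower and none higher, the importer Slc39a14 most (-0.95), with metallothionein Mt1 at -0.52. Zinc transporters outside that list rose, Slc39a4 from 21, 22.9 and 19.6 to 62.1, 56.7 and 61.3 CPM and Slc30a2 from 1, 0 and 0 counts to 27, 18 and 12, a ratio of counts per total of 62.9 (95% exact interval 10.8 to 2527, counting error only).

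Genes of sulfur metabolism and antioxidant genes were read as separate lists. Of 9 sulfur genes tested 5 were higher (55.6%) and 2 lower (22.2%), beside 32.4% and 31% of all genes (median 0.36). Tst and Mpst, mitochondrial sulfurtransferases, Sqor, which oxidizes hydrogen sulfide, and Suox, which oxidizes sulfite, all rose, from 10.7, 8.83 and 8.46 to 35.7, 31.6 and 32.1 CPM for Tst (log2 fold change 1.83 ± 0.09) and from 29, 29.3 and 34.1 to 72.6, 64 and 66.3 CPM for Sqor (log2 fold change 1.13 ± 0.07). Mpst changed by 1.13 ± 0.07 and Suox by 1.37 ± 0.25. Mat2a, which makes the methyl donor of the cell, fell (-0.90 ± 0.06), as did Bpnt1 (-0.49). NRF2 targets had 10 higher and 6 lower of 24 (median 0.04). Slc7a11 led those that rose, followed by Sod2 (0.71) and Gpx4 (0.61) among the abundant ones, while the glutathione synthesis gene Gclc (-0.67) and thioredoxin reductase Txnrd1 (-0.39) fell. TGACNNNGC was present in 7 of 20 of their promoters (35%), beside 12% of all. This share too covers members whatever their change and describes the list.

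Lipid genes divided by process. Fatty acid synthesis was lower in 9 and higher in 5 of 18, with Fasn going from 1085, 1061 and 1039 to 581, 596 and 559.9 CPM (log2 fold change -0.87 ± 0.05) and the phosphatidate phosphatase Lpin1 rising (1.03 ± 0.08). Cholesterol synthesis was lower in 10 and higher in 9 of 23, with Mvd at 0.80 ± 0.05. Among genes of lipid carriage, Apoe rose from 1151, 983 and 1104 to 2023, 1918 and 1855 CPM (log2 fold change 0.84 ± 0.07) and Fabp4 by 1.22 ± 0.08, while the scavenger receptor Cd36 fell from 100.2, 90.5 and 94.8 to 49, 53.3 and 50.4 CPM and Pparg changed by -1.34 ± 0.40 from about 1 CPM.

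The cytoskeleton and its links to the matrix were more often lower. Of 38 actin genes 20 were lower and 9 higher. The focal adhesion protein zyxin Zyx stood at 34.5, 44 and 36.9 CPM before and 14.3, 14.9 and 15.4 CPM after (log2 fold change -1.38 ± 0.09), vinculin Vcl changed by -0.89 ± 0.05, and Actg1 went from 217, 285 and 253 to 118, 110.2 and 105 CPM. Actb, often used as a reference gene, stood at 7103, 7535 and 7137 CPM and 5180.0, 5752 and 5555 CPM (log2 fold change -0.40 ± 0.05, adjusted p = 3.82e-08). The actin-severing gelsolin Gsn rose from 501, 491 and 544 to 939, 989.6 and 1028 CPM. Of 26 genes of the matrix and its proteases 7 were higher and 11 lower. The gelatinase Mmp2 (1.00 ± 0.24), the syndecan Sdc3 (0.96 ± 0.06) and Mmp19 (0.92 ± 0.14) rose most. Among those lower, the elastase Mmp12 changed by -2.27 ± 0.22, and the collagenase Mmp13 had 16, 15 and 28 counts in the untreated libraries and 0, 1 and 0 after OGD/R, a ratio of counts per total of 53.5 (95% exact interval 9.23 to 2147, counting error only). The urokinase receptor Plaur changed by -1.02 ± 0.08 and the protease Adam8 by -1.07 ± 0.07.

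Microglial identity genes did not shift in one direction as a list. Tmem119 stood at 4.8, 4.84 and 4.85 CPM before and 1.41, 1.83 and 2.36 CPM after (log2 fold change -1.40 ± 0.16), and Fcrls changed by -1.94 ± 0.40. P2ry12 overlapped between the groups (1.92, 2.64 and 2.1 CPM and 1.45, 1.64 and 2.1 CPM, adjusted p = 0.14), and the lineage factor Spi1 was level (0.07 ± 0.05, adjusted p = 0.216), while Irf8 (0.52 ± 0.05) and Selplg (0.72 ± 0.05) were higher. Of 17 homeostatic genes 6 were higher (35.3%) and 5 lower (29.4%), near the 32.4% and 31% of all genes. The scavenger receptor Marco rose from 16.5, 17 and 15 to 60.4, 65.2 and 63.7 CPM (log2 fold change 1.96 ± 0.09).

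Some of the largest ratios of the comparison were in genes of low level. Ip6k3, an inositol hexakisphosphate kinase, had 0, 4 and 1 counts in the untreated libraries and 115, 122 and 95 after OGD/R (log2 fold change 6.08 ± 0.38). Grin1, the obligatory subunit of NMDA receptors, had 0, 1 and 0 counts and then 16, 22 and 17, a ratio of counts per total of 60.7 (95% exact interval 10.5 to 2440, counting error only). Its level after OGD/R did not pass 0.871 CPM. Of 21 chloride and water channels 9 were higher and 4 lower. The water and glycerol channels Aqp3 (0.501, 0.147 and 0.368 CPM before, 4.77, 4.01 and 4.92 CPM after) and Aqp9 (1.71, 1.39 and 1.21 and 5.67, 4.62 and 4.92 CPM) rose, and the water channel Aqp8 fell most (-1.36 ± 0.36). Trpm4, a calcium-activated cation channel, rose from 4.97, 5.39 and 5.44 to 27, 26.3 and 24.2 CPM (log2 fold change 2.29 ± 0.11), and the calcium-activated potassium channel Kcnn4 fell from 3.76, 3.56 and 4.59 to 1.96, 1.41 and 2.1 CPM (log2 fold change -1.14 ± 0.19). Of the purinergic receptors, P2rx4 rose from 78.8, 71 and 72.3 to 134, 125 and 125 CPM (log2 fold change 0.79 ± 0.05) and P2rx3 changed by 2.34 ± 0.35. The 202 solute carriers tested had 54 higher (26.7%) and 72 lower (35.6%), beside 32.4% and 31% of all genes.

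Clock, death and chromatin genes gave few shifts in one direction. Of 21 clock genes 10 were higher (47.6%) and 5 lower (23.8%), beside 32.4% and 31% of all genes. Rora (6.77, 5.83 and 6.21 CPM before, 20.9, 19.2 and 21.9 CPM after), Dbp (1.29) and Per3 (1.29) were higher and Per2 lower (-0.93). Of 21 p53 targets 8 were higher (38.1%) and 4 lower (19%), beside 32.4% and 31% of all genes. Among them were the death receptor Fas (2.3, 1.28 and 1.47 and 7, 5.34 and 6.71 CPM) and the exonuclease Aen, which fell from 53.4, 50.3 and 52.1 to 19.4, 20.9 and 22.1 CPM. Of 26 genes of the BCL2 family, caspases and their inhibitors 12 were higher (46.2%) and 8 lower (30.8%), beside the same shares of all genes (median -0.01). Bik (1.59) and Birc3 (1.21) were the furthest up and Bid the furthest down, from 128, 127 and 134 to 61.6, 66.4 and 67.2 CPM. The 313 zinc finger genes had 64 higher (20.4%) and 66 lower (21.1%), both under the shares over all genes. Of 32 chromatin enzymes of the Kdm, Kmt, Tet and Polycomb families 10 were higher (31.25%) and 8 lower (25%), near or under the shares over all genes. Kdm7a rose most (1.03 ± 0.07).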

How the data were processed

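RNA of BV2 microglia was sequenced in 12 libraries, of which the 6 shCtrl libraries are described here. The table that the authors deposited holds raw counts, a whole number for each gene and library, with no scaling. The submitters' processing notes name HISAT2 2.0.4 and mm39, whereas the methods of the paper describe other tools for hippocampal RNA, and the strand setting of counting is not given in the sources used here, so reads of a gene and an antisense partner cannot be told apart. A further 12 per-sample columns of normalized values were not used. Counts were tested with edgeR 4.0.16 in R 4.3.3 (TMM, quasi-likelihood, 1 model over all 12 libraries, a minimum of 0.5 CPM in 3 or more libraries, Benjamini-Hochberg), and CPM are counts per TMM-scaled library total. The standard error is the log2 fold change divided by the square root of F. Replicates varied by 5.36% beyond counting error (common biological coefficient of variation), and no 2 libraries of a group agreed within counting noise. On simulated counts for this comparison (11500 genes), 94.8% of 97 genes changed by 1 and 100% of 100 genes changed by 2 on the log2 scale were called. Of the unchanged genes 10 were called. Changes under 2-fold, and a change in most genes as in these data, were not simulated, so their recovery is not known.

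The members and the 66 gene lists were chosen with earlier results of these data known. Named genes are the 15 per direction with the largest fold (mean of at least 5 CPM, no overlap), the 10 per direction with the largest CPM difference at 2-fold, the chosen landmark genes of each list and up to 4 called members per direction of it, and Anxa2 and Actb. Other list members were named after their values were seen. Alternatives were median-of-ratios factors, other filters, DESeq2 1.42.0, limma 3.58.1 voom, the 6 libraries alone, the replicate block, other fold limits and leaving out each library. Promoters are the 250 bases before each RefSeq start. Reads of near-identical genes (histones, ribosomal proteins, actins, Ftl1, Hspa1b) can be split between copies. No p-value here covers the spread between separately made lines.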

Additional observations from a re-analysis of the deposited data

Results flagged for a closer look

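The OGD/R change differed between the shCtrl and shAnxa2 lines for 8136 of 11626 genes by edgeR's interaction test (adjusted p under 0.05). Of the 7372 genes called in the control line, 6834 had the opposite sign in the shAnxa2 line and 6906 passed this test. Selenbp1 changed by 3.21 on the log2 scale in shCtrl and by -3.07 in shAnxa2, Ndrg1 by 2.73 and -2.54, and Cdc6 by -1.50 and 0.94. Anxa2 was lower in all 6 shAnxa2 libraries than in all 6 shCtrl libraries, so the lines sort as named. The knocked-down gene does not check the treatment labels within a line.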

How the results depend on the processing

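The counts of called genes stayed within 1.5 times of the values reported under other scaling, filters, DESeq2, voom and the 6 libraries alone. The 2-fold counts followed the fold limit by construction, with 206 higher and 81 lower genes at a log2 limit of 1.5 and 1386 and 977 at 0.58. Leaving out 1 library at a time gave 3486 to 3553 higher and 3356 to 3441 lower genes, and 529 to 561 and 236 to 267 at 2-fold. DESeq2 called 3655 and 3588. The replicate numbers did not pair the libraries, since same-numbered libraries deviated together with correlations of only 0.0134, -0.0238 and -0.0331. The fit with a replicate block called 3754 higher and 3601 lower genes, and 8114 in the interaction test. Of 490 called genes among 509 named, 40 lost the call in at least 1 alternative and none turned direction while called. Mki67 (-0.17 with all libraries) was not called without shCtrl-CTRL replicate 1 or shCtrl-OGDR replicate 2. At a median of 25681521 counts per library, genes under 1 CPM rest on few reads, and folds there are imprecise. The cause of each lost call was not tested.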

Other observations

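Some further genes had large changes. Nefh, the heavy neurofilament subunit of neurons, was well expressed in these cells and fell from 313, 322 and 322 to 115, 132 and 136 CPM (log2 fold change -1.32 ± 0.06, adjusted p = 1.86e-14 by edgeR), whereas Nefl and Nefm had no count in any of the 6 libraries. Slc18a1, a vesicular monoamine transporter, fell from 14.6, 13.9 and 13.9 to 3.44, 4.24 and 5.02 CPM. Fbxo32 (atrogin-1), a ubiquitin ligase of muscle wasting, rose from 4.34, 3.48 and 3.86 to 11.4, 10.8 and 8.86 CPM, and the deubiquitinase Usp2 fell from 19.3, 20.1 and 18.9 to 7.47, 9.81 and 9.38 CPM.

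Dmwd and Dmpk, neighbours on chromosome 7 (mm39, 18810152 to 18816701 and 18817774 to 18827746, both on the plus strand), fell together, Dmwd from 15.9, 18.9 and 17.2 to 4.81, 3.93 and 4.25 CPM and Dmpk from 4.34, 3.41 and 3.68 to 0.704, 0.687 and 0.461 CPM. Both were singled out after their values were seen.

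Level and position gave weak relations across genes, which are not independent replicates. Spearman's rho with the log2 fold change was 0.067 for genomic span and -0.114 for mean level over 11626 genes. The median log2 fold change of a chromosome ran from -0.066 (chromosome 13) to 0.076 (chromosome 14) among the autosomes and X.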
